A study of Oryza sativa with 45 samples.

Results

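The PR1-type secreted proteins described here are 7 probe sets of the rice array that the study's annotation calls SCP-like extracellular proteins. They were taken from the 13 probe sets with that description among the transcripts the study listed as different in these data, and the array holds 54922 probe sets in all. The probe sets of LOC_Os07g03288 and LOC_Os07g03377 had equal values on every array, so the 7 members gave 6 distinct signals. The members were chosen because their signal was much higher under salt in generation F6. Their values in F6 are therefore given as a description with no test, and tests are given only for F4, for F8 and for the change between them.

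RNA was measured on 45 Affymetrix arrays, 1 per pool of 10 whole seedlings of Oryza sativa ssp. japonica cv. Nipponbare, 15 days old, with 3 pools in each of 15 conditions. Line C was derived from seed and never transformed. Line Ta was transgenic and carried 1 copy of the transcription factor gene OsICE1, fused to a TAP tag and driven by the maize ubiquitin promoter, with a hygromycin resistance gene as marker. Line NSb was a negative segregant, a descendant without the transgene of another transformed line whose OsICE1 had the same promoter but no TAP tag. All 3 lines were sampled in F4, F6 and F8 without salt, and in F6 after 12 days at 12 dS/m. In F8 they were also sampled as later descendants, not direct offspring, of the salt-stressed F6 plants (salt history). Each line stands for a single transformation event or none, and nothing in the labels ties a pool to a pool of another condition.

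PR1 proteins are small, cysteine-rich proteins that plant cells secrete to the apoplast, and they belong to the same superfamily as the cysteine-rich secretory proteins of animals. Their transcripts accumulate after attack by pathogens, and in Arabidopsis and tobacco PR1 is the classical marker of salicylic acid signalling, in which NPR1 acts as a coactivator. Rice has several PR1-type genes, some of which also respond to jasmonate, wounding or abiotic stress.

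Of the members, 6 probe sets lay within 202.4 kb of chromosome 7, at 1321193 to 1523629 in the coordinates of the study's annotation (MSU rice genome annotation, release 6). LOC_Os07g03288 (probe set 16019997, minus strand, 1321193 to 1322127), LOC_Os07g03377 (16020003, 1354346 to 1355280) and LOC_Os07g03467 (16020009, 1387413 to 1388436) stood 33.1 to 33.2 kb apart, and the array annotation gave all 3 to one reference gene, LOC4342311. LOC_Os07g03319 (16009082, plus strand, 1334345 to 1335057) and LOC_Os07g03409 (16009090, 1367558 to 1368076) were also 33.2 kb apart and both were given to LOC9268689. This stretch is called the repeat here. Signals of probe sets given to 1 reference gene were not told apart, and no sequences were compared. LOC_Os07g03730 (16009125, plus strand, 1522653 to 1523629, LOC4342318) lay outside the repeat, and LOC_Os01g28450 (15801982, 15933465 to 15934293, LOC4325422) was on the plus strand of chromosome 1. The signals rested on 15 to 25 probes each.

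The arrays held deposited RMA signals on the log2 scale. Array medians were 4.46 to 4.50 in F4, 4.14 to 4.22 in F6 and 4.53 to 4.58 in F8, so the signals of the members were compared within a generation only. In each generation every Ta pool had a higher ICE1 signal than every pool of C and NSb (8.82 to 9.63 over the 15 Ta pools and 4.37 to 6.30 over the 30 others). Markers of the organs in a whole seedling were summed over 4 shoot genes and 5 root genes. Over the F6 pools the shoot sum was 11.82 to 12.23 on the log2 scale and the root sum 10.07 to 10.68. Under salt in F6 the shoot sum was 12.035 to 12.098 in C, 11.867 to 11.93 in NSb and 11.819 to 11.927 in Ta. The root sum in F4 was 10.36 to 10.403 in C, 9.81 to 10.045 in NSb and 9.897 to 10.23 in Ta. In F8 without salt history it was 11.56 to 11.587 in C, 11.446 to 11.479 in NSb and 11.114 to 11.207 in Ta. The shoot sums of these F8 pools overlapped between lines. The part of these line differences in those of the members was not tested. Over all 45 pools RCA, a shoot gene, was at 10.49 to 11.32 and Lsi1, a root gene, at 8.21 to 10.33.

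All 6 distinct signals were higher under salt in every line of F6. The median salt difference over the 6 signals was 4.03 on the log2 scale in C, 3.78 in NSb and 2.95 in Ta, where the median over all probe sets was 0.00 in C and -0.01 in NSb and in Ta. In each line, every salted pool was above every unsalted pool for 6 of the 6 signals, which also held for 11.2% of all probe sets in C, 17.8% in NSb and 16.1% in Ta. These counts repeat what chose the members.

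**Figure D1:**
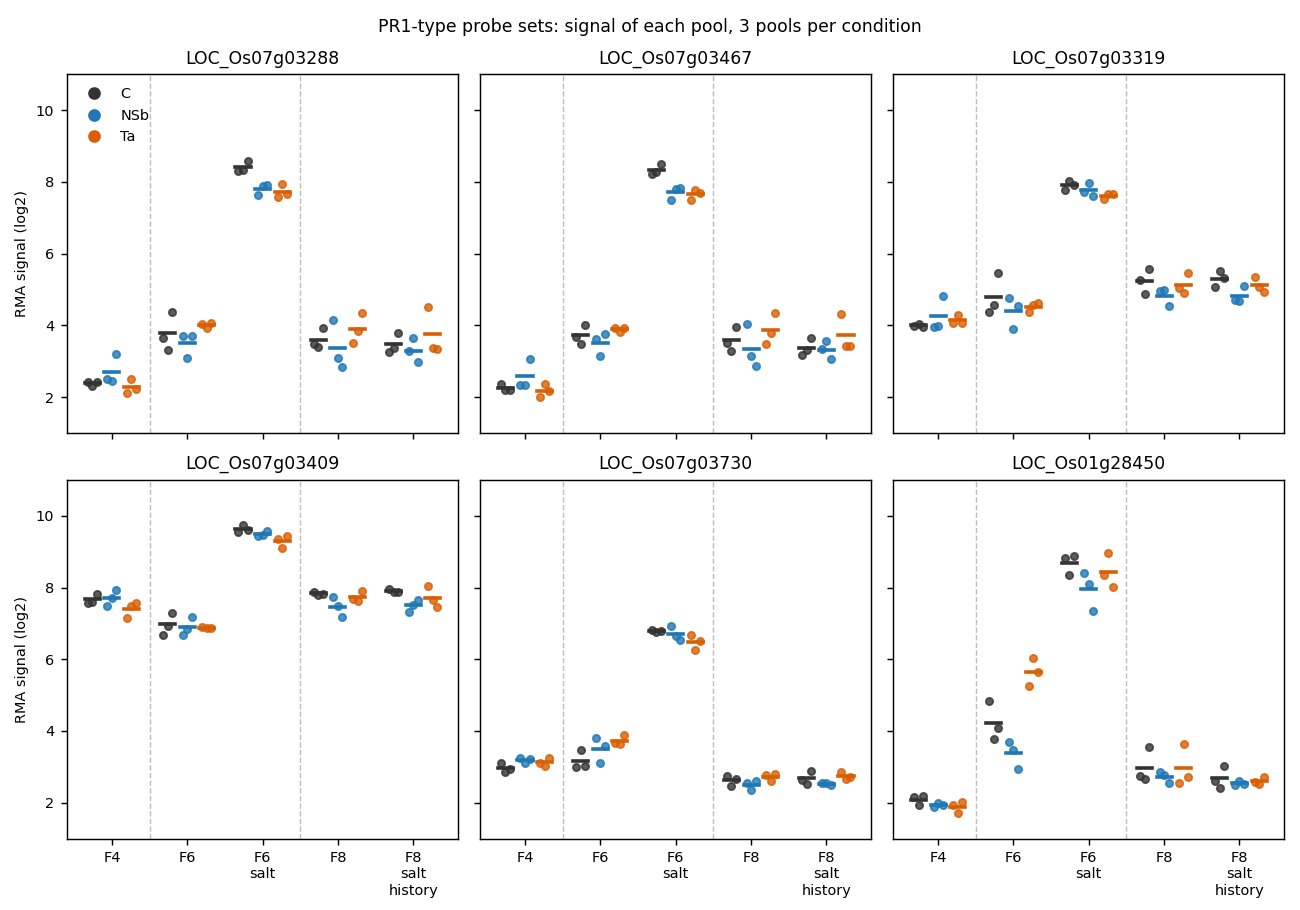
RMA signal (log2, vertical axis) of the 6 distinct PR1-type signals in each pool, by generation and treatment (horizontal axis) and line (colour), with 3 pools per condition and a bar at their mean. Dashed lines part the generations, whose levels are not compared, and the salted F6 pools lie above all unsalted F6 pools of their line in each panel.

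The signal shared by LOC_Os07g03288 and LOC_Os07g03377 was 3.65, 3.31 and 4.38 in the unsalted pools of C and 8.30, 8.33 and 8.59 in the salted ones, a 24.7-fold difference of the means. In NSb it was 3.70, 3.09 and 3.71 without salt and 7.62, 7.87 and 7.92 with it, which was 19.7-fold. In Ta it was 4.03, 3.92 and 4.06 without salt and 7.58, 7.93 and 7.67 with it, which was 13.2-fold. The unsalted pools of C and NSb spread more widely than those of Ta, and the salted pools of C were all above those of both other lines. LOC_Os07g03467, assigned to the same reference gene, gave salt differences of 4.62 in C, 4.20 in NSb and 3.77 in Ta, close to those of the first signal. Both probe sets are assigned to LOC4342311, so their values cannot be taken as separate measurements of different genes. Whether the loci are different genes was not determined.

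LOC_Os07g03409 had the smallest salt difference of the members in each line. Its unsalted pools were at 6.69, 6.92 and 7.30 in C, and its salted pools at 9.54, 9.75 and 9.60, a difference of 2.66. The difference was 2.60 in NSb and 2.41 in Ta. The values of LOC_Os07g03409 were identical to those of LOC_Os07g03499, the next copy in the repeat, which the rule did not take in. LOC_Os07g03319, from the same reference gene, had salt differences of 3.11 in C, 3.37 in NSb and 3.09 in Ta. LOC_Os07g03730, the member beyond the repeat, went from 3.16 ± 0.27 (SD, n = 3) to 6.78 ± 0.03 in C, from 3.50 ± 0.36 to 6.70 ± 0.19 in NSb and from 3.73 ± 0.15 to 6.48 ± 0.21 in Ta.

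LOC_Os01g28450 was the member whose lines stood furthest apart without salt. Its unsalted pools were at 4.84, 3.77 and 4.08 in C, at 3.71, 3.46 and 2.95 in NSb, and at 5.25, 6.04 and 5.63 in Ta. The Ta pools were all above those of C, and the NSb pools were all below those of C. Under salt the pools were at 8.81, 8.36 and 8.89 in C, at 8.41, 8.10 and 7.34 in NSb, and at 8.34, 8.96 and 8.03 in Ta, and each pair of lines overlapped. The salt difference was thus 4.45 in C, 4.58 in NSb and 2.80 in Ta, or 21.9-fold, 23.9-fold and 6.98-fold. The study also listed this transcript among those that differed between lines in F6, so the line difference is a description as well.

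Of the other members, none had a line difference of that size without salt. Ta was above C by 0.56 in LOC_Os07g03730, with pools that did not overlap, and by 0.22 in LOC_Os07g03288, with pools that did. Ta pools lay wholly above C pools for 2 of the 6 signals without salt, against 6.9% of all probe sets, and wholly below them for 5 of the 6 under salt, against 7.83%. NSb pools lay wholly below C pools for 1 of the 6 without salt (5.92% of all probe sets) and for 2 of the 6 under salt (5.66%). The salt difference was smaller in Ta than in C for 6 of the 6 signals, as it was for 50.6% of all probe sets, by 0.02 in LOC_Os07g03319 up to 1.65 in LOC_Os01g28450, with a median of 0.85. NSb had the smaller salt difference in 4 of the 6 (48.8% of all probe sets). All these counts use the arrays that chose the members and carry no test.

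The smallest mean salt difference over the lines in a member was 2.56, in LOC_Os07g03409. Among the other PR1-type probe sets with values of their own, the largest was 2.23, in LOC_Os01g28500. The probe set of LOC_Os07g03499, at the same 2.66, 2.60 and 2.41 as its twin LOC_Os07g03409, was not a member. No cut-off on the salt difference therefore parts the members from the others.

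The remaining 5 PR1-type probe sets of the study's list were also higher under salt, by less than the members. The study listed them for their salt difference on the same arrays, so these values are a description with no test, as for the members. LOC_Os01g28500, a neighbour of LOC_Os01g28450 on the other strand of chromosome 1, was higher by 2.40 in C, 2.14 in NSb and 2.14 in Ta. LOC_Os10g11500, on chromosome 10, was higher by 1.97 in C, 1.42 in NSb and 1.66 in Ta. The remaining 3 lie in the repeat of chromosome 7, 1 per copy. LOC_Os07g03279 was higher by 1.89 in C, 1.53 in NSb and 1.67 in Ta, LOC_Os07g03368 by 1.85, 1.43 and 1.68 in the same order, and LOC_Os07g03458 by 1.89, 1.58 and 1.65. These 3 are assigned to the same pair of reference genes, so they cannot be taken as 3 separate measurements.

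Between LOC4342311 and LOC4342318, the reference lists 22 genes, of which 5 have a probe set of their own. They were counted to see how far the salt difference reached along the chromosome. In each line 2 of the 5 rose in limma, while 5.14% of all probe sets rose in C, 9.34% in NSb and 6.26% in Ta. LOC4342313 rose by 0.90 in C (adjusted p = 0.00593), by 0.80 in NSb (adjusted p = 0.00891) and by 0.72 in Ta (adjusted p = 0.0232, limma). LOC4342317, the nearest of the 5 to LOC_Os07g03730, rose by 1.00, 0.94 and 0.92, from unsalted means of 1.97 to 2.05. LOC4342316 fell by 0.51 in NSb (adjusted p = 0.0118) and differed by -0.21 in C and -0.15 in Ta, where it did not pass. LOC4342314 and LOC4342315 did not pass in any line, and their differences were at most 0.14. The count in Ta was 1 of 5 without Ta replicate 2 or 3 of either F6 treatment.

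**Figure D2:**
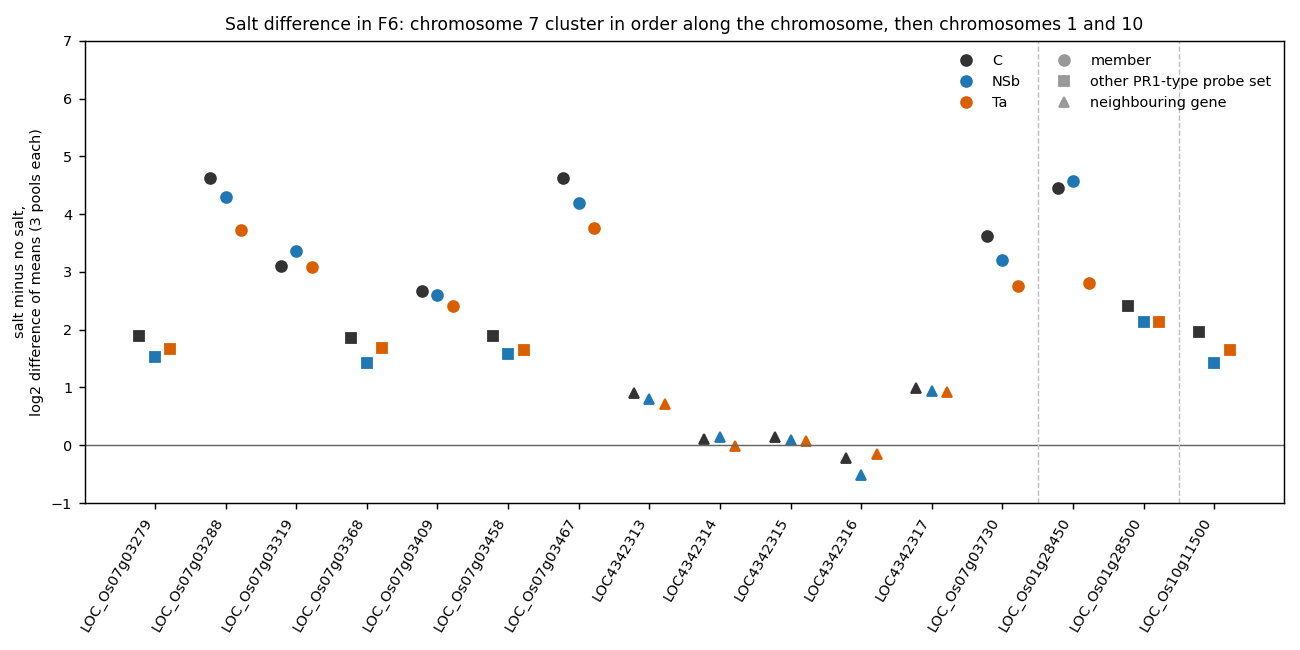
Salt minus no salt in F6 (log2 difference of the means of 3 pools each, vertical axis) for members (circles), other PR1-type probe sets (squares) and neighbouring genes (triangles), by line (colour), with the chromosome 7 genes in order and then chromosomes 1 and 10. The members lie between 2.41 and 4.62 and the neighbours between -0.51 and 1.00.

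Of a list of 14 genes of salicylic acid signalling, only 4 could be matched to a probe set, and the others were not seen. Under salt limma called 0 of these 4 in each line. Over all probe sets it called 9.68% in C, 15.4% in NSb and 10.5% in Ta. Whether the signalling itself was active was not tested. At an unadjusted p under 0.05 the count was 1 of 4 in C (20.9% of all probe sets), 2 of 4 in NSb (28.1%) and 0 of 4 in Ta (22.8%). OsNPR1, the coactivator, differed by -0.01 in C (95% interval -0.57 to 0.56), by 0.36 in NSb (-0.21 to 0.93) and by 0.36 in Ta (-0.21 to 0.93). OsNPR2 differed by -0.10, 0.16 and 0.05, and OsNPR3 by 0.13, 0.33 and -0.03, in C, NSb and Ta. A phenylalanine ammonia-lyase gene (PAL), the entry into phenylpropanoid metabolism, differed by -0.24 in C (-0.43 to -0.05), -0.21 in NSb (-0.40 to -0.02) and -0.09 in Ta (-0.28 to 0.10). PBZ1, a pathogenesis-related protein of the PR10 class, was higher under salt in each line. It rose by 2.07 in C (adjusted p = 3.59e-05), 2.29 in NSb (adjusted p = 9.28e-06) and 1.41 in Ta (adjusted p = 0.00107, limma). It was the only 1 of 3 planned PR10 genes with a matched probe set. In the 11 comparisons without salt, limma called 1 of the 4 salicylic acid genes once: OsNPR3 was higher in NSb than in C of F4 by 0.77 (standard error 0.13, adjusted p = 0.0373).

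Marker genes of the organs moved in part with salt. Among root genes the nitrate transporter gene NRT2.1 fell by 3.31 in C, 3.14 in NSb and 3.59 in Ta, and AMT1;3, an ammonium transporter, fell by 0.75 in C and 1.14 in NSb and differed by -0.53 in Ta without passing. AMT1;2 and the silicon transporter Lsi1 rose in C by 0.95 and 0.49 and did not pass in NSb or Ta, and Lsi2 passed in no line. Among shoot genes RCA, the activase of Rubisco, fell by 0.31 in NSb and 0.34 in Ta and differed by -0.15 in C, and RBCS, CAB1R and CAB2R passed in no line. The part of these shifts in the salt differences of the members was not tested. In whole seedlings, more cells that express a gene and more RNA per cell cannot be told apart.

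The same 6 signals were then compared between lines in F4 and F8, which the rule did not use. In F4, limma called 0 of 6 between Ta and C (0.164% of all probe sets called), between NSb and C (1.06%) and between Ta and NSb (0.071%). At an unadjusted p under 0.05 the counts were 0, 1 and 0 of 6, beside 11.8%, 13.3% and 7.46% of all probe sets. The 1 signal was LOC_Os07g03730. Its pools were at 3.10, 2.85 and 2.95 in C and at 3.26, 3.10 and 3.23 in NSb, so that the highest C pool met the lowest NSb pool. The difference was 0.23 (standard error 0.09, 95% interval 0.02 to 0.44, adjusted p = 0.341, limma). For all 6 signals, the intervals of the F4 line differences ran from -0.61 to 0.62 for Ta minus C, from -0.39 to 0.77 for NSb minus C and from -0.87 to 0.36 for Ta minus NSb. LOC_Os07g03288 and LOC_Os07g03467 lay at percentiles 7.18 to 26.36 of their arrays in F4. LOC_Os01g28450 lay at 3.68 to 9.47. A difference between lines may not show at such low signals. At an unadjusted p under 0.05, Ta minus NSb had 3 of 6 without NSb replicate 1, 2 of 6 without NSb replicate 2 and 1 of 6 without Ta replicate 2 or 3, Ta minus C had 1 of 6 without C replicate 1 or 2, and NSb minus C had 0 or 1 of 6 without any 1 array. The other 5 PR1-type probe sets were not called either (0 of 5 in each of the 11 comparisons of F4, F8 and salt history). Between NSb and C of F4, 3 of these 5 had an unadjusted p under 0.05, and their median difference was -0.34, while that of the 6 member signals was 0.24.

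LOC_Os01g28450 had the widest spread between lines in unsalted F6, where Ta and C pools did not overlap. Its pools in F4 were at 2.15, 1.92 and 2.18 in C, at 1.87, 1.99 and 1.93 in NSb and at 1.93, 1.72 and 2.03 in Ta. In F8 they were at 2.75, 2.65 and 3.54 in C, at 2.87, 2.77 and 2.55 in NSb and at 2.54, 3.62 and 2.73 in Ta. Ta and C overlapped in both generations. These pools lay low, at percentiles 3.68 to 9.47 of their arrays in F4 and 13.48 to 33.31 in F8. At such low signals a difference between lines may not show. The fitted Ta minus C difference was -0.19 in F4 (95% interval -0.43 to 0.05) and -0.01 in F8 (-0.69 to 0.66). Whether the line difference itself differed between F6 and the other generations was not tested.

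In F8, limma again called 0 of 6 between Ta and C (0.508% of all probe sets called), between NSb and C (0.0419%) and between Ta and NSb (0.319%), with 0, 1 and 0 of 6 at an unadjusted p under 0.05 (9.73%, 6% and 8.72% of all probe sets). The 1 signal was LOC_Os07g03409. Its pools were at 7.87, 7.80 and 7.83 in C and at 7.74, 7.49 and 7.16 in NSb, without overlap. The difference was -0.37 (standard error 0.14, 95% interval -0.69 to -0.05, adjusted p = 0.783, limma). Among pools with salt history the same probe set was at 7.95, 7.87 and 7.86 in C and at 7.33, 7.51 and 7.66 in NSb, a line difference that was not tested. All 6 signals had a mean in NSb below that in C and in Ta in F8, with a median difference of -0.25 for NSb minus C and 0.29 for Ta minus NSb, against medians of -0.01 and 0.01 over all probe sets. In F4 the order was the other way, with Ta minus NSb below 0 for 6 of 6 (median -0.21) and NSb minus C above 0 for 5 of 6. For the repeat, the F4 signs leaned in part on NSb replicate 3. It was above its condition mean by 0.48 in LOC_Os07g03288, 0.49 in LOC_Os07g03467, 0.56 in LOC_Os07g03319 and 0.23 in LOC_Os07g03409. The other NSb pools of F4 were below that mean there. In LOC_Os07g03730 and LOC_Os01g28450 replicate 3 was at 0.03 and -0.001 from its mean. The signs without this pool, and their share among all probe sets, were not counted. The signals were read from the same pools, and LOC_Os07g03288 and LOC_Os07g03467 were given to 1 reference gene, so these 6 signs are not 6 separate observations. Leaving out NSb replicate 1 of F8 gave 3 of 6 at an unadjusted p under 0.05 for Ta minus NSb and 2 of 6 for NSb minus C, which was also 2 without C replicate 2. Without any other array both counts were 0 or 1, and the adjusted count was 0 each time. Over the 6, the intervals ran from -0.98 to 0.50 for NSb minus C, from -0.69 to 1.04 for Ta minus C and from -0.44 to 1.28 for Ta minus NSb. In these pools LOC_Os07g03730 was low as well, at percentiles 9.84 to 18.1 of their arrays.

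From F4 to F8 the line differences were tested as well, in a fit of all arrays without salt or salt history. The unsalted F6 arrays, which the rule used, thus entered the estimate of spread in that fit. None of the 6 changed between NSb and C (0.288% of all probe sets called) or between Ta and C (0.55%) in limma, and 0 of 6 had an unadjusted p under 0.05 in either (8.5% and 9.39% of all probe sets). The count for NSb minus C was 3 of 6 without NSb replicate 1 of F8, 2 of 6 without NSb replicate 1 of F4, and 1 of 6 without C replicate 3 of F6 or C replicate 2 of F8, with an adjusted count of 0 each time. For NSb minus C the 6 values were all below 0, from -0.67 to -0.10 with a median of -0.49, and their intervals ran from -1.44 to 0.73. For Ta minus C they lay between -0.24 and 0.40, and their intervals ran from -1.01 to 1.28.

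Within each line of F8, descendants of salt-stressed F6 plants were compared with descendants of unstressed plants. This asked whether salt in F6 left a trace in F8. Limma called 0 of 6 members in C, in NSb and in Ta, and 0 of 6 had an unadjusted p under 0.05 in any line. At that level there were 5.37% of all probe sets in C, 6.71% in NSb and 7.12% in Ta. The adjusted test called 0% of all probe sets in C, 0.00364% in NSb and 0.031% in Ta. The median difference of the 6 was -0.04 in C, -0.01 in NSb and -0.08 in Ta. The first signal, of LOC_Os07g03288, was at 3.50, 3.84 and 4.36 in Ta without salt history and at 4.53, 3.38 and 3.34 with it, and at 3.48, 3.40 and 3.93 in C without and 3.25, 3.37 and 3.80 with it. The pools overlapped in both lines. The most negative difference was -0.36, in LOC_Os01g28450 of Ta. The intervals of the 6 ran from -0.88 to 0.61 in C, from -0.81 to 0.68 in NSb and from -0.90 to 0.59 in Ta. Leaving out replicate 1 of the Ta pools without salt history gave 1 of 6 at an unadjusted p under 0.05 in Ta, and the adjusted count was 0. Leaving out replicate 1 of the Ta pools with salt history gave 0 of 6.

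**Figure D3:**
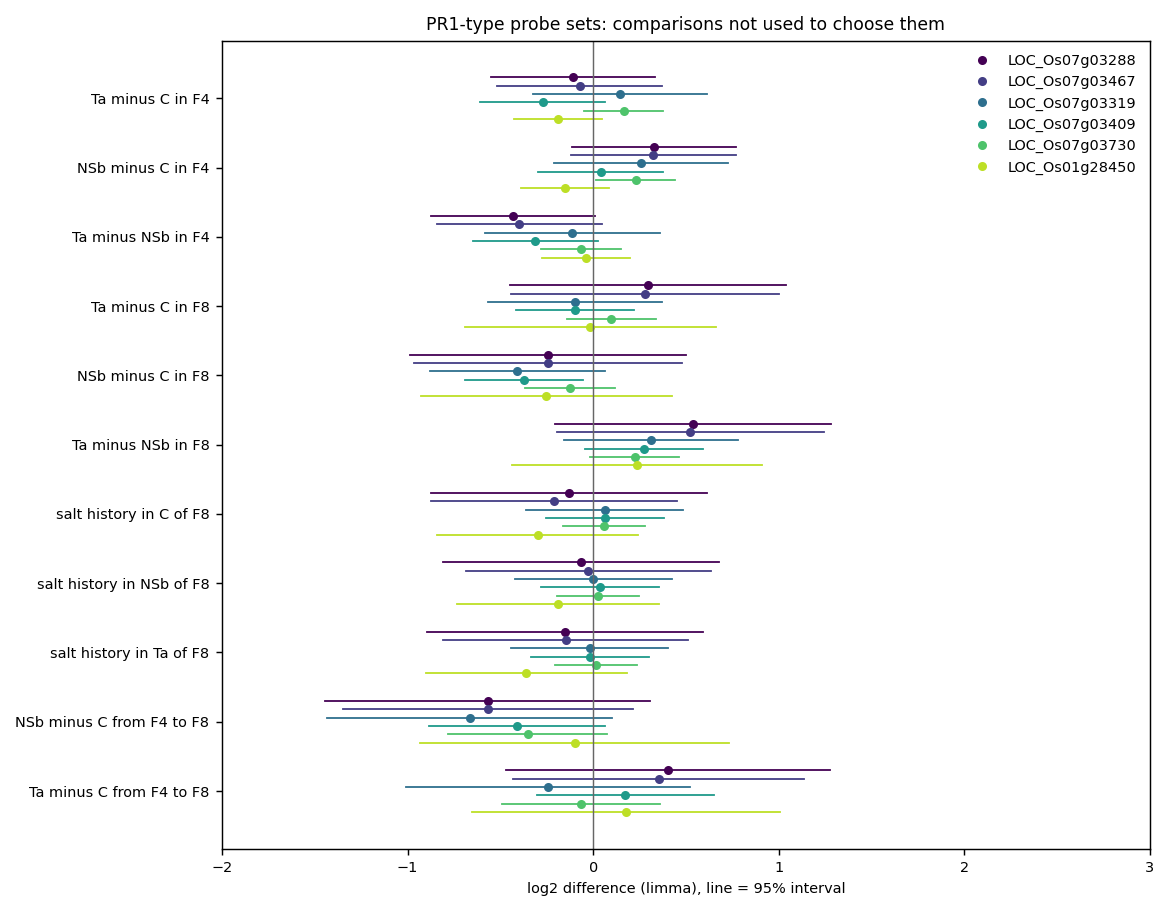
Log2 difference (point) and 95% interval (line) from limma for the 6 signals (colour) in the 11 comparisons that did not choose them (vertical axis). No point passed the adjusted threshold, and the intervals lie between -1.44 and 1.28. The intervals from F4 to F8 take part of their spread from unsalted F6 pools.

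Pools of 1 condition differed from each other in the members. The 4 signals of the repeat deviated from the condition mean in the same direction in 22 of the 45 pools (8 above, 14 below) and in mixed directions in 23. NSb replicate 3 of F4 was above the mean of its condition by 0.48 in LOC_Os07g03288, 0.49 in LOC_Os07g03467, 0.56 in LOC_Os07g03319 and 0.23 in LOC_Os07g03409, and by 0.03 in LOC_Os07g03730. NSb replicate 1 of F8 was above it by 0.78, 0.69, 0.13 and 0.27 in the same 4, and Ta replicate 1 with salt history by 0.78, 0.60, 0.24 and 0.32. In NSb replicate 3 with salt history the first 2 were at -0.32 and -0.27 and the other two at 0.27 and 0.16. Over the 45 arrays, deviations from the condition mean correlated with r = 0.972 between LOC_Os07g03288 and LOC_Os07g03467, and with r from 0.566 to 0.641 for the other pairs within the repeat. For LOC_Os07g03288, 0.095% of all probe sets followed its deviations at least as closely as LOC_Os07g03409 did. LOC_Os07g03730, in the same cluster but outside the repeat, had r from 0.041 to 0.192 with those 4. LOC_Os01g28450 had r from -0.343 to 0.146 with all others. The points share arrays and normalisation, LOC_Os07g03288 and LOC_Os07g03467 share a reference gene, as do LOC_Os07g03319 and LOC_Os07g03409, and the values are a description.

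**Figure D4:**
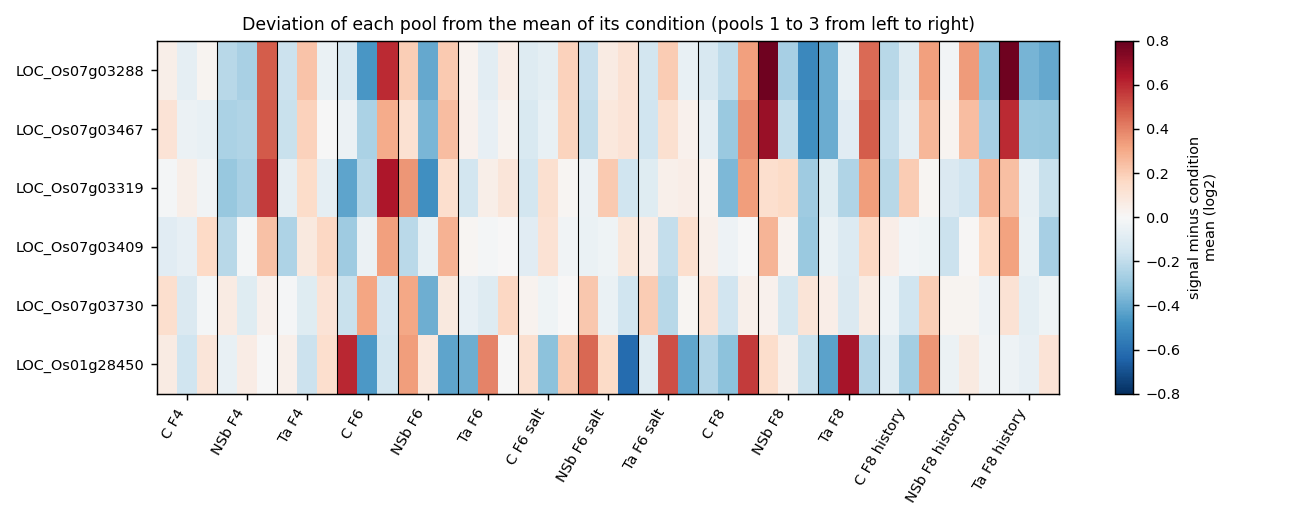
Signal minus condition mean (log2, colour) for the 6 signals (rows) in the 45 pools (columns), grouped by condition. The upper 4 rows, the signals of the repeat, have the same sign in 22 of the 45 pools, and the top 2 rows are nearly alike (r = 0.972 over the 45 arrays).

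Over the 15 condition means, centred within each generation, each signal followed the mean profile of the 6 with r from 0.968 (LOC_Os01g28450) to 0.998 (LOC_Os07g03288), a value that includes the signal itself. Outside the PR1-type genes, the 5 genes with the highest r were LOC4331946 (0.992), LOC4326518 (0.991), LOC4332477 (0.990), LOC4324068 (0.990) and LOC4351328 (0.989). LOC4326518 is described as a glycosyl hydrolase of family 17, the family of plant beta-glucanases, and its signal was higher under salt by 2.96 in C, 3.30 in NSb and 2.85 in Ta. LOC4324068, described as a ribosome inactivating protein, was higher by 3.52, 3.69 and 3.25. LOC4351328 is the transcription factor gene OsWRKY64 and was higher by 2.49, 2.58 and 2.53. LOC4331946 was higher by 1.44, 1.35 and 1.18 and LOC4332477 by 1.23, 1.45 and 1.12, and neither has a description in the annotation used. The 15 means include the 3 F6 salt conditions that chose the members, and the likeness is given with no test.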

How the data were processed

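RNA of pools of 10 whole seedlings was hybridised to Affymetrix RUSGene 1.1 ST arrays. The deposited log2 values are RMA signals that the authors computed in Affymetrix Expression Console (versions not given in the sources used here). They run from 0.649 to 12.944 for 54922 probe sets. No detection calls were used, so whether a low signal was above background was not determined, and the number of arrays limits the precision. All 45 sample columns were used, and conditions came from the sample titles. The p-values rest on the spread between pools within a condition, pooled over the conditions of a fit and moderated over all probe sets. They do not measure a spread between transformation events.

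Lines were compared in 1 fit per generation, salt in a fit of the 18 F6 arrays, and salt history in a fit of the 18 F8 arrays, with group means, moderated variances and 2-sided tests in limma 3.58.1 (R 4.3.3, data.table version 1.17.8). The change from F4 to F8 was fitted on all arrays without salt or salt history, those of F6 included. P-values were adjusted by Benjamini-Hochberg over all 54922 probe sets, and a call needed an adjusted p under 0.05. The fit was also run on simulated data with changes larger than the line differences of the members in F4 and F8. That run does not measure the power to call differences of their size. Tables and figures used Python 3.11.15, numpy 2.4.6, pandas 2.3.3 and matplotlib 3.10.9. The members, gene lists and tests were chosen with earlier results of these data known. Probe sets were named from the array annotation, in which 24080 have 1 gene symbol and 95 have several, and coordinates came from the study's supplementary annotation, whose fold changes were not used.

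Genes named are every member, the other PR1-type probe sets that passed the threshold under salt in all 3 lines, every matched gene of the salicylic acid list, and the 5 genes with a symbol whose condition means were most like those of the members. Neighbouring genes were added after the data were seen. Lists of 14 salicylic acid, 3 PR10, 7 shoot and 7 root genes were matched by name and chromosome to 4, 1, 4 and 5 probe sets. Alternatives were a fold of at least 3, the 10% of probe sets with the highest SD, a filter on low values, centring on array medians, an intensity trend with robust variances, identical probe sets counted once, only the arrays compared, a single fit of all 45 arrays, a block for the replicate number, and each array left out.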

Additional observations from a re-analysis of the deposited data

How the results depend on the processing

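The count of members called was 0 in all 11 comparisons of F4, F8 and salt history with each array left out (range 0 to 0) and under every alternative that gave a value, but not always over 6 signals. The filter on low values kept only 1 of the 6 in F4, 2 in F8 and salt history and 3 from F4 to F8. The filter on the 10% of probe sets with the highest SD kept 3 in the line fits of F8 and from F4 to F8, 2 in salt history and none in F4, where it gave no value. A fold minimum cannot raise a count of 0, so it tests nothing there. The other PR1-type probe sets, which were listed for their salt difference on these arrays, passed the threshold in 5 of 5 cases in each line under all alternatives but 1: with a fold of at least 3 the count in NSb was 1, because 4 of the 5 differed by less. With each array left out it stayed at 5. These counts repeat what put the 5 on the study's list and are no test. In the main fit 5.14% of all probe sets were called higher under salt in C, 9.34% in NSb and 6.26% in Ta. The median salt difference of the members ranged from 2.87 to 3.06 in Ta with each array left out. Same-numbered pools deviated together (r over 0.1) in 1 of 9 pairs of F4, in 6 of 45 pairs of F6 and in 2 of 45 pairs of F8. Over the F6 pairs r ran from -0.22 to 0.28. Pairs of pools with different numbers were not counted in this way. Whether some same-numbered pools were grown or handled together was not tested. With the replicate number as a block the counts were again 0 for the members and 5 for the other PR1-type probe sets. The neighbouring genes called higher under salt fell from 2 to 0 in each line with a fold of at least 3. None of them differed by as much as that fold, so this outcome was fixed in advance. With the filter on low values the count was 1 in each line. That filter dropped LOC4342317, whose signal stayed below the F6 array medians, so it was not tested there. In C the count was also 1 with only the arrays compared. With 3 pools per condition, the intervals in F8 for line differences of the members reached -0.98 and 1.28 on the log2 scale.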
